A study of Mus musculus with 24 samples.

Results

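The nuclear genes that encode the respiratory chain and the ATP synthase were examined across splenic dendritic cells of mice. They were taken as the symbols that match the families Nduf (a, b, c, s or v with a number), Sdha to Sdhd, Uqcr, Cox4 to Cox8 and Atp5, leaving out Cox6a2, and that had 10 or more counts in at least 2 of the 24 libraries. Of 24421 symbols counted, 83 matched and 77 reached that minimum. They comprised 34 genes of complex I, 4 of complex II, 8 of complex III, 14 of complex IV and 17 under the name of complex V. Cox7a1 lay just inside the minimum, with 10 or more counts in 3 libraries and at most 19. Just outside lay Ndufs5, with at most 9 counts in any library, and Cox4i2, with at most 4. Ndufa4l2 had at most 3, and Cox7b2, Cox8b and Cox8c had 0 in all 24. RefSeq lists 1 pseudogene named after Ndufs5. How reads shared with it were counted is not known, so the low count of Ndufs5 need not mean low expression. Genes of the mitochondrial genome were not among the symbols.

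RNA came from both conventional dendritic cell subsets (cDC1 and cDC2), isolated by cell sorting out of spleens of untreated C57Bl/6 mice aged 6 to 12 weeks. In the deletion line all mice carried Zeb2fl/fl, floxed alleles of the transcriptional repressor Zeb2, and the Cre-positive mice also carried CD11cCRE, a Cre recombinase driven by CD11c sequences. In the transgene line all mice carried R26-Zeb2Tg/Tg, a Zeb2 transgene in the Rosa26 locus, and the Cre-positive mice carried the same CD11cCRE. Cre-negative littermates served as controls, so the presence of Cre and recombination of the allele cannot be told apart. Each subset and line had 2 control and 4 Cre-positive libraries, which gave 8 groups. The labels do not say whether replicates were separate mice, and the p-values reflect only how far these libraries vary, which may be technical.

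The respiratory chain passes electrons from NADH (complex I) and succinate (complex II) through ubiquinone to complex III, and from there through cytochrome c to complex IV, which reduces oxygen. The proton gradient built by complexes I, III and IV drives the ATP synthase, complex V. Most subunits are made from nuclear genes such as those described here, and the remaining subunits of complexes I, III, IV and V come from mitochondrial DNA.

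Between 21972763 and 36094786 counts fell on genes in each library, and all 77 genes passed the low-count filter, which left 13166 genes. Levels are given as CPM, the usual scaling of counts to library size, here with TMM factors. Zeb2, counted over the whole gene, stood at 104 to 176 CPM in control cDC2 and at 30.7 to 41.4 CPM in cDC2 with the deletion. It stood at 0.488 to 3.26 CPM in control cDC1 and at 41.4 to 46.3 CPM in cDC1 with the transgene. The summed level of 7 cDC1 markers was 3765 to 7464 CPM in cDC1 and 141.4 to 258.3 CPM in cDC2, and that of 7 cDC2 markers was 25.67 to 295.2 and 2379 to 3434 CPM, each high in the subset it names. Among lists for other cells, B cell markers summed to 10.58 to 77.79 CPM in cDC1 and 47.72 to 252.1 in cDC2. Macrophage markers summed to 89.64 to 246.7 and 149.2 to 553.4 CPM, and pDC markers to 28.89 to 81.62 and 73.25 to 177.6. Monocyte markers, at 80.53 to 280.7 and 493.6 to 1284 CPM, were higher in cDC2 without overlap. The other lists reached their highest sums in cDC2 but were not higher there in every group. B cell markers summed to 59.06 to 74.19 CPM in deletion-line control cDC1 and 57.48 to 71.49 in control cDC2. With the transgene, macrophage markers summed to 142 to 246.7 CPM in cDC1 and 153.3 to 193.9 in cDC2. All 6, 7, 6 and 6 genes of those lists had counts, and cDC2 themselves express some of them, Csf1r among them; their part in the differences below was not tested. T cell, NK cell, neutrophil and erythroid lists summed to at most 17.23 CPM in any library, with Hba-a1, Hba-a2 and Hbb-bt at 0.

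Respiratory chain transcripts made up a larger share of the counts in cDC1 than in cDC2. The 77 genes together took 1.053 to 1.304% of counts in the 12 cDC1 libraries (median 1.173%) and 0.6883 to 0.9321% in the 12 cDC2 libraries (median 0.825%), with no overlap. The share was 1.146 ± 0.0382% (SD, n = 2) in control cDC1 of the deletion line and 1.19 ± 0.105% (SD, n = 2) in the transgene line's. For control cDC2 the shares were 0.8341 ± 0.025% and 0.8778 ± 0.0769% (SD, n = 2 each). Cre-positive cDC1 had 1.128 ± 0.0532% with the deletion and 1.245 ± 0.0397% with the transgene (SD, n = 4 each). Cre-positive cDC2 had 0.7926 ± 0.0697% and 0.8527 ± 0.0438% (SD, n = 4 each). The shares of complexes I, II, III and V were each without overlap between the subsets. That of complex IV ran from 0.167 to 0.2252% in cDC1 and from 0.1221 to 0.1671% in cDC2, where 1 cDC1 library lay just below 1 cDC2 library. In sorted bulk samples, fewer cells of one kind and less RNA per cell cannot be told apart.

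**Figure D1:**
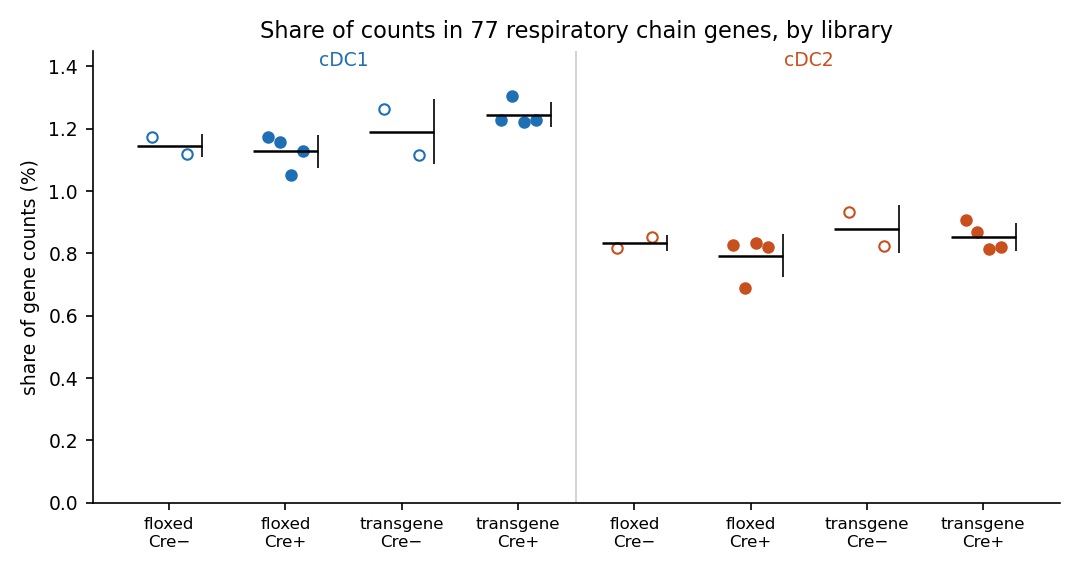
Percentage of all gene counts (y axis) in the 77 respiratory chain genes, one point per library; open points are Cre-negative and filled points Cre-positive, the horizontal line is the group mean and the vertical line 1 SD. All 12 cDC1 libraries (1.053 to 1.304%) lie above all 12 cDC2 libraries (0.6883 to 0.9321%).

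The subsets were compared gene by gene in 3 sets of libraries that have no library in common: the controls, the cells with the deletion and the cells with the transgene, 4 libraries against 4 in each. In controls, 64 of the 77 genes were lower in cDC2 than in cDC1 and 2 were higher (edgeR quasi-likelihood test, Benjamini-Hochberg adjusted over all genes, threshold 0.05), where 25.8% of all genes tested were lower and 27.6% higher. With the deletion 65 were lower and 1 higher, against 27.1% and 29% of all genes. With the transgene 68 were lower and 2 higher, against 26% and 26.8% of all genes. The median log2 fold change of the 77 was -0.58, -0.51 and -0.66 in these 3 sets, beside 0.05, 0.05 and 0.03 over all genes.

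The genes that fell were largely shared. Lower in all 3 sets were 62 of the 77 genes, or 80.5%, against 19.2% of all genes tested, and 1 gene was higher in all 3. For 56 genes (72.7%) every one of the 12 cDC1 libraries exceeded every one of the 12 cDC2 libraries, a separation found for 12.6% of all genes. Most differences were moderate: 7, 7 and 9 genes were at least 2-fold apart in controls, with the deletion and with the transgene. In each set and complex the median was below 0. It was lowest in complex III, at -0.88, -0.82 and -0.86, and in complexes I, II, IV and V it lay between -0.45 and -0.67.

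**Figure D2:**
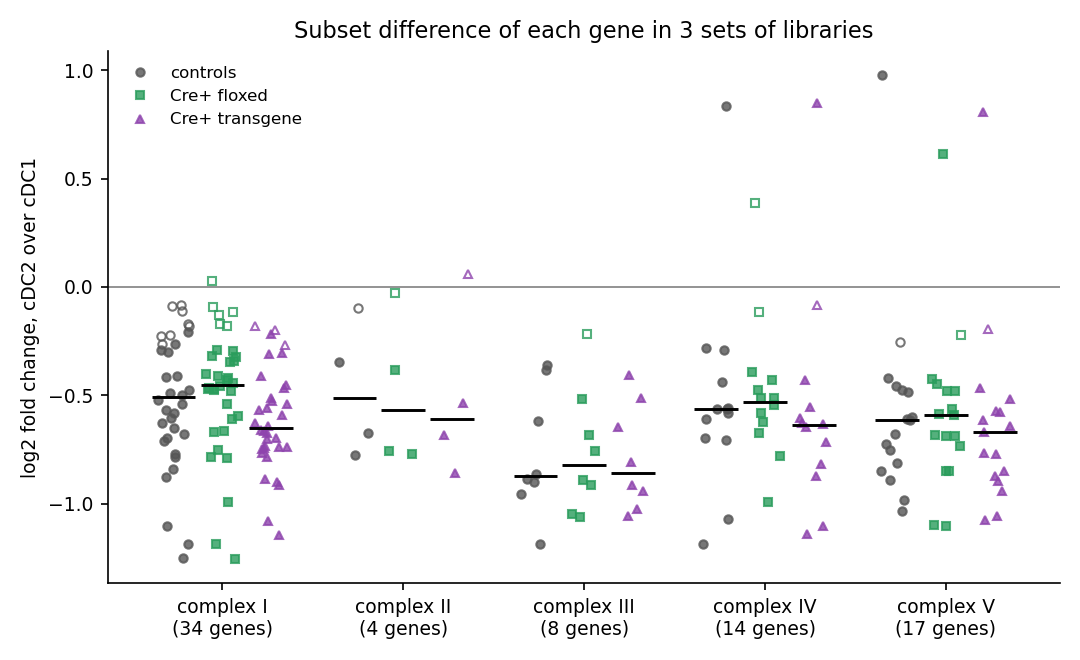
Log2 fold change of cDC2 over cDC1 (y axis) for each gene by complex (x axis) in controls (circles), Cre-positive floxed (squares) and Cre-positive transgene (triangles) libraries, 4 against 4 in each. Filled symbols passed the adjusted threshold of 0.05, open symbols did not, black lines are medians over all genes of the complex, and Cox7a1 (at most 19 counts) is not drawn; nearly all points lie below 0, with Atp5sl and Cox6b2 above.

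Stretches before the start sites of members from each of complexes II to V are shown because these genes either fell clearly (Sdhd, Uqcrfs1, Cox7b and Atp5b) or passed in no set (Sdha). They are from RefSeq on GRCm38.p6, written 5′ to 3′ on the gene's strand. Those of Uqcrfs1, Cox7b and Atp5b leave out annotated exons, which for Uqcrfs1 and Atp5b take the last 46 and 34 bases before the start. For Sdha and Sdhd, whose 250 upstream bases hold exons of Ccdc127 (100 bases), of Sdha itself (40 bases) and of Timm8b (130 bases), only motif matches with flanks are given, and these may include exon bases. Capitals mark matches on either strand to the motif of ETS factors, CCGGAAG, or to that of NRF1, which is GCGC, any base, T and again GCGC.
Sdha, chr13:74350319-74350348: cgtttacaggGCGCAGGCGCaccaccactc
Sdha, chr13:74350276-74350305: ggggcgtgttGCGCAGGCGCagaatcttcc
Sdha, chr13:74350241-74350260: gcgactcggtGCGCAAGCGC
Sdhd, chr9:50603909-50603938: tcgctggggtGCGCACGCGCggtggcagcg
Sdhd, chr9:50603879-50603905: cgtctcctgcCTTCCGGttcacgcttc
Uqcrfs1, chr13:30545363-30545566: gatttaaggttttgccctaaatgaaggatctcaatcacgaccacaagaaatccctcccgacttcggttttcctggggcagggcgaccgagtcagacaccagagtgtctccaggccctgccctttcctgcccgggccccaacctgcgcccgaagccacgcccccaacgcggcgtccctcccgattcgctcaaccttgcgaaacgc
Cox7b, chrX:106015450-106015699: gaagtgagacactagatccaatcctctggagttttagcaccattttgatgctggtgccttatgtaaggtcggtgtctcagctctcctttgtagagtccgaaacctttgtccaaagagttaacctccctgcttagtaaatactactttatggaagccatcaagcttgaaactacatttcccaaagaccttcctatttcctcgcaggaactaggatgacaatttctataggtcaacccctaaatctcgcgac
Atp5b, chr10:128083057-128083272: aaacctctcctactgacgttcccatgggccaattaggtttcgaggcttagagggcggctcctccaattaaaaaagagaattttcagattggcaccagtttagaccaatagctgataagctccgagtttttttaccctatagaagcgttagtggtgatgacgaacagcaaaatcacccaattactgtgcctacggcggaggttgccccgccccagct

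NRF1 (nuclear respiratory factor 1) and ETS factors such as GABP are known regulators of respiratory chain genes, and YY1 is a further factor described at such promoters. Of the 77 genes, 66 had a promoter entry, and the 250 bases before the start were searched on both strands. The NRF1 motif was present at 12 of the 66 (18.2%), against 4.23% of all 27025 genes with an entry and 9.06% of those tested here. The ETS motif was present at 12 (18.2%, against 7.83% and 15.4%), and the YY1 motif AAGATGGC at 2 (3.03%, against 1.83% and 2.42%). Of the 12 genes with an NRF1 match 7 were lower in cDC2 in all 3 sets, and of the 54 without one 46 were. Of the 12 with an ETS match 11 were lower in all 3 sets, and of the 54 without one 42 were. The matches describe letters in these windows, and binding was not measured.

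In complex I, which oxidises NADH, 26, 28 and 31 of 34 genes were lower in cDC2 in controls, with the deletion and with the transgene, and 26 were lower in all 3. Ndufb11, an accessory subunit of the membrane arm, had the largest difference of the complex in controls. Control cDC1 had 131, 142, 159.5 and 161 CPM, and control cDC2 had 58.6, 63.9, 67.7 and 58.6 CPM, deletion line first. Every cDC2 control was below every cDC1 control. Its log2 change was -1.25 (SE 0.087, adjusted p = 2.551e-11), a 2.38-fold difference. Ndufa12, an accessory subunit needed for a complete complex, stood at 61.9, 59.7, 63.2 and 60.4 CPM in control cDC1 and at 25.2, 28.7, 30.7 and 23 CPM in control cDC2. It was 2.28-fold lower in control cDC2 (log2 -1.19, SE 0.096, adjusted p = 3.138e-10), and 2.39-fold and 2.21-fold lower with the deletion and the transgene. Ndufb2, another membrane arm subunit, was lower by a log2 change of -1.11, -0.99 and -1.08.

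The 7 core subunits measured, which carry the flavin, the iron-sulphur clusters and the ubiquinone site, differed less than the 27 accessory subunits in the median. Their medians were -0.26, -0.32 and -0.45, beside -0.57, -0.47 and -0.68 for accessory subunits, and no test compared them. Ndufs1, the largest core subunit, ran from 59.9 to 92.7 CPM in cDC1 (median 71.1) and from 58.7 to 73.7 CPM in cDC2 (median 63.5), overlapping between subsets. Its log2 change in controls was -0.17 with a 95% interval of -0.38 to 0.04, which does not pass the test and does not exclude a modest fall. Ndufs8, an iron-sulphur core subunit, fell in all 3 sets (-0.58, -0.66 and -0.75). The accessory genes Ndufa8 and Ndufb3 passed in none of the sets. Ndufa5, with 348 to 733 counts per library, passed with the transgene (log2 -0.59, adjusted p = 9.991e-04).

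In complex II, succinate dehydrogenase, Sdha passed in no set while its 3 partners fell in each. Sdha encodes the flavoprotein that oxidises succinate, and it stood at 364, 378.3, 364 and 347 CPM in control cDC1 and at 363, 344, 320.3 and 330.3 CPM in control cDC2. Those ranges overlap, and the log2 change was -0.10 (95% interval -0.21 to 0.02) in controls, -0.03 (-0.14 to 0.09) with the deletion and 0.06 (-0.06 to 0.18) with the transgene. Sdha also had the smallest spread within groups, a coefficient of variation of 3.3% against a median of 9.01% over the 77 genes. Sdhb, the iron-sulphur subunit that forms the catalytic head with Sdha, stood at 171, 174, 187 and 172 CPM in control cDC1 and at 108, 118, 110.5 and 105 CPM in control cDC2. All cDC2 controls were below all cDC1 controls, a 1.6-fold difference (log2 -0.68, SE 0.072, adjusted p = 3.576e-08). The membrane anchors Sdhc and Sdhd were 1.27-fold (log2 -0.35, adjusted p = 0.0017) and 1.71-fold lower (log2 -0.78, adjusted p = 1.438e-09).

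Because both genes of a ratio come from the same library, scaling between libraries cancels out. The log2 ratio of Sdhb to Sdha was -1.045 ± 0.071 in control cDC1 and -1.622 ± 0.101 in control cDC2 (SD, n = 4 each). The difference between subsets was -0.58 in controls, -0.73 with the deletion and -0.74 with the transgene. For Sdhd to Sdha it was -0.68, -0.75 and -0.92, and for Sdhc to Sdha -0.25, -0.36 and -0.60. In each of these 9 cases the 4 cDC2 ratios lay below the 4 cDC1 ratios.

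**Figure D3:**
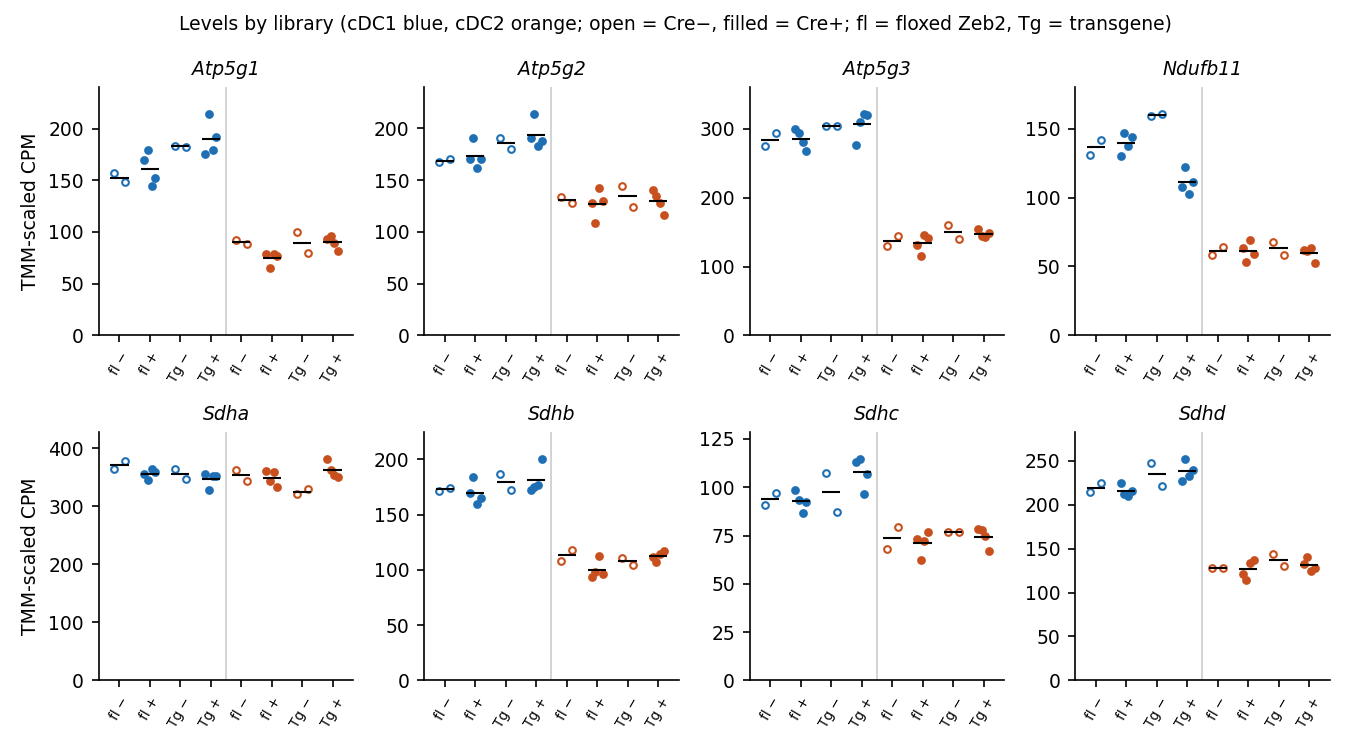
TMM-scaled CPM (y axis, from 0) by library for the c ring genes Atp5g1 to Atp5g3, Ndufb11 and the complex II genes Sdha to Sdhd, in floxed (fl) and transgene (Tg) lines without (open) or with (filled) Cre; blue is cDC1, orange cDC2, and lines are group means. Sdha lies at 320.3 to 381.3 CPM in all groups while Sdhb, Sdhc and Sdhd are lower in cDC2, and Ndufb11 is lower in transgene Cre-positive cDC1 than in the other cDC1 groups.

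In complex III, which passes electrons from ubiquinol to cytochrome c, all 8 genes were lower in cDC2 in controls and with the transgene, and 7 with the deletion. Uqcrfs1 encodes the Rieske iron-sulphur protein. It stood at 255, 268, 279 and 261 CPM in control cDC1 and at 136, 145, 151 and 142 CPM in control cDC2, a clear separation. It was 1.85-fold lower in controls (log2 -0.89, SE 0.072, adjusted p = 3.816e-10), and 1.86-fold and 1.75-fold lower in the other sets. Uqcrb, a small subunit near the ubiquinone site, stood at 176, 143, 165 and 149 CPM in control cDC1 and at 56, 71.8, 87.2 and 63.9 CPM in control cDC2. That made it 2.28-fold lower (log2 -1.19, SE 0.106, adjusted p = 1.939e-09). Uqcr11, a small subunit, fell as well (-0.96, -1.05 and -1.03). The core protein gene Uqcrc1 fell less (-0.36, -0.52 and -0.51). Uqcrh, the hinge protein, fell in controls and with the transgene (-0.38 and -0.41) and stood at -0.22 with the deletion (adjusted p = 0.09). RefSeq lists 2 pseudogenes named after Uqcrh, and how their reads were counted is not known, so its values are uncertain.

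In complex IV, cytochrome c oxidase, 12, 12 and 11 of 14 genes were lower in cDC2, and 11 in all 3 sets. Cox7b, a small nuclear subunit, stood at 114, 94.7, 110.2 and 102 CPM in control cDC1 and at 39.1, 45.9, 57.3 and 43.2 CPM in control cDC2. The groups were apart by 2.28-fold (log2 -1.19, SE 0.107, adjusted p = 2.337e-09), and by 1.99-fold and 2.21-fold with the deletion and the transgene. Cox7c, another small subunit, fell by log2 -1.07, -0.78 and -1.11, with 1 pseudogene of its name in RefSeq. Cox4i1, a regulatory subunit, stood at 335 to 476 CPM in cDC1 and at 245 to 300.3 CPM in cDC2 without overlap. Its log2 changes were -0.56, -0.43 and -0.63, and those of Cox5b, a zinc-binding subunit, were -0.70, -0.63 and -0.88. Ndufa4, a subunit first assigned to complex I, changed by -0.58, -0.55 and -0.61.

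Some isoforms of complex IV departed from this course and others did not. Cox6b1, the widely expressed form of a subunit facing the intermembrane space, fell in all 3 sets (-0.44, -0.39 and -0.63). Cox6b2, known as its testis form, had 27 to 86 counts per library and went the other way. It stood at 1.09, 1.85, 1.81 and 1.43 CPM in control cDC1 and at 2.91, 3.31, 2.28 and 2.61 CPM in control cDC2, with no overlap. The log2 change was 0.84 in controls (SE 0.287, adjusted p = 0.018), 0.39 with the deletion (adjusted p = 0.26) and 0.85 with the transgene (adjusted p = 0.015). Leaving out single libraries ended the call in controls in 4 of 8 cases (cDC1 controls of the transgene line replicate 2 and deletion line replicate 1, and both cDC2 control replicates numbered 2), with adjusted p of 0.052 to 0.095. With the transgene it ended without cDC1 replicate 4 (adjusted p = 0.065). Cox7a2 fell in all 3 sets (-0.71, -0.68 and -0.82), while its relative Cox7a2l, a factor of respiratory supercomplexes, fell in controls (-0.28, adjusted p = 0.0064) and stood at -0.11 and -0.08 in the other sets. Cox7a1, known as the heart and muscle form, passed with the deletion alone (adjusted p = 0.012). It had 6, 5, 8 and 3 counts in those cDC1 libraries and 0, 1, 2 and 0 in the cDC2 libraries, too few for a fold. Cox8a, the common form of its subunit, fell in all 3 sets (-0.56, -0.51 and -0.65).

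Under the name of complex V, 15 of 17 genes were lower in cDC2 in each set, the same 15 in all 3. Atp5b encodes the catalytic beta subunit of the F1 head. It stood at 1497, 1556, 1775 and 1589 CPM in control cDC1 and at 937, 985.5, 972 and 912 CPM in control cDC2, a wide gap. The difference was 1.68-fold in controls (log2 -0.75, SE 0.069, adjusted p = 2.647e-09), 1.8-fold with the deletion and 1.71-fold with the transgene. The gamma subunit gene Atp5c1, the stalk of the rotor, fell by -0.85, -0.74 and -0.85. Atp5o, part of the peripheral stalk, fell by -0.68, -0.68 and -0.94.

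The c ring, the rotor that protons turn, is encoded by Atp5g1, Atp5g2 and Atp5g3, which give the same mature protein from different precursors. Atp5g3 stood at 275, 294, 304 and 304 CPM in control cDC1 and at 129, 144, 161 and 140.2 CPM in control cDC2. It was 2.05-fold lower (log2 -1.04, SE 0.077, adjusted p = 7.88e-11), and its groups were apart in all 3 sets. Atp5g1 was 1.86-fold lower in controls (log2 -0.89) and more than 2-fold lower in the other sets (-1.11 and -1.08). Atp5g2 stood at 167.5, 170.2, 191 and 180.3 CPM in control cDC1 and at 134, 128, 144 and 124 CPM in control cDC2, a smaller gap of 1.34-fold (log2 -0.42, SE 0.084, adjusted p = 1.959e-04). Within libraries, the log2 ratio of Atp5g1 to Atp5g2 was lower in cDC2 by -0.48, -0.65 and -0.50 in the 3 sets, and that of Atp5g3 to Atp5g2 by -0.62, -0.65 and -0.48. The 4 ratios of each subset did not overlap in any of these 6 cases.

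The 2 genes of the Atp5 names outside this course are not subunits of the synthase proper. Atp5sl, called Dmac2 in RefSeq after its part in assembling the distal membrane arm of complex I, was higher in cDC2 in all 3 sets. It stood at 13.7, 16.1, 17.3 and 12.6 CPM in control cDC1 and at 31, 28.3, 26.2 and 32.4 CPM in control cDC2, without overlap. The fold was 1.97 in controls (log2 0.98, SE 0.129, adjusted p = 9.016e-07), 1.53 with the deletion and 1.75 with the transgene. Atp5s, called Dmac2l in RefSeq, had 63 to 159 counts per library and passed in none of the sets (log2 -0.26, -0.22 and -0.19).

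Per kilobase of transcript, the levels of the 77 genes spread widely. The lengths are those of the longest principal transcript in GENCODE vM21, and level here means the mean CPM per kilobase over 24 libraries. Among the high values were those of Atp5b at 660.9, Cox4i1 at 439.2 and Cox6a1 at 373. Among the low values were those of Cox7a1 at 0.486, Atp5s at 2.51 and Cox6b2 at 3.63. Within complex II, Sdhd stood at 145, Sdhb at 124, Sdha at 121.7 and Sdhc at 27.2. The order of genes with similar values, Sdha and Sdhb included, depends on which transcript length is taken.

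Short transcripts as a class were lower in cDC2, and most respiratory chain transcripts are short, with a median length of 865 bases against 2940 over all genes tested. In controls, the 44 members of up to 1000 bases had a median log2 change of -0.59, beside -0.33 for the other genes of that length. The 25 members of 1000 to 2000 bases had a median of -0.62, beside -0.11 for the others. The 6 members of 2000 to 4000 bases, Sdha, Ndufs1 and Atp5sl among them, had a smaller median of -0.19, beside 0.09 for the others. With the deletion and the transgene the median of these 6 was -0.25 and -0.24. The 2 members over 4000 bases, Atp5g1 (4715) and Ndufb2 (4371), had a median of -0.998, beside 0.155 for the others. The length taken for Atp5g1 exceeds its RefSeq locus and may be wrong. That of Ndufb2 may be too long as well, as its 6.86 CPM per kilobase was the lowest of complex I. Which transcripts were expressed was not measured. This leaves the class over 4000 bases and the correlation over members uncertain. Across the 77 members, Spearman's rho between length and the log2 change was 0.155 in controls, 0.08 with the deletion and 0.21 with the transgene. Across 13071 genes tested it was 0.138, 0.147 and 0.196; genes share the same libraries and are not replicates. The part of transcript length in the subset difference was not tested beyond these values.

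Among the 77 genes, 1 passed in 1 of the 4 Cre comparisons. Zeb2 itself was low in cDC1 of the deletion line, at 0.488 and 2.56 CPM in controls and 0.457 to 2.67 CPM with Cre. In cDC2 of the transgene line Zeb2 stood at 104 CPM in each control and at 148 to 159 CPM with Cre. In cDC1 of the deletion line, 0 of the 77 passed by edgeR and 0 by DESeq2, where 0.0228% of all genes passed by edgeR; 1 had an unadjusted p under 0.05. In cDC2 with the deletion 0 passed by either tool and 5 had an unadjusted p under 0.05, while 5.21% of all genes passed by edgeR. In cDC2 of the transgene line 0 passed by either tool and 1 had an unadjusted p under 0.05, with 0.327% of all genes called. In cDC1 of the transgene line 1 gene passed, lower with Cre, beside 7% of all genes called, 3.42% lower and 3.58% higher. The median log2 change of the 77 was -0.007 and -0.001 in cDC1 and cDC2 of the deletion line, and 0.055 and -0.029 in those of the transgene line. The precision was enough to bound most of them: the 95% interval lay within 1.5-fold either way for 73 and 72 genes with the deletion, and for 71 and 74 genes with the transgene.

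The gene that passed was Ndufb11. It stood at 159.5 and 161 CPM in the control cDC1 of the transgene line and at 107.5, 122.5, 103 and 112 CPM in the Cre-positive cDC1. All 4 lay below both controls, and also below the 130.4 to 147 CPM of every cDC1 library of the deletion line. It was 1.44-fold lower (log2 -0.53, SE 0.103, 95% interval -0.74 to -0.32, adjusted p = 0.0018). In the other 3 Cre comparisons its log2 change was 0.03 (-0.19 to 0.25), 0.00 (-0.22 to 0.22) and -0.08 (-0.29 to 0.14). Between the subsets, its Cre effect in the transgene line was 0.45 apart (SE 0.148), which did not pass (adjusted p = 0.14, unadjusted p = 0.0058). With the replicate number as a block the change was -0.49 and no longer passed (adjusted p = 0.099). The labels give no pairing by number, and that fit used the compared libraries alone. Cre-positive libraries without a control of their number added nothing to its contrast, so it had little power to keep a call.

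Ndufb11 lies at chrX:20615326-20617619 on the minus strand of GRCm38.p6. Its exons overlap those of Rbm10 on the other strand over 117 bases, 12.9% of Ndufb11, and all 250 bases before its start are Rbm10 exon. The strand setting of the counting is not given in the sources used here, so reads of that stretch may not be told apart. Rbm10, an RNA-binding splicing regulator, had a log2 change of 0.24 in the same comparison (adjusted p = 0.43). In that group the cDC2 markers summed to 117.5 to 295.2 CPM, beside 34.07 to 38.79 CPM in its controls, and 7 of 7 were above 1 CPM there, against 6 of 7 in the controls. The cDC1 markers summed to 3765 to 5070 CPM beside 6028 to 7464 CPM. Their part in the lower Ndufb11 was not tested.

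**Figure D4:**
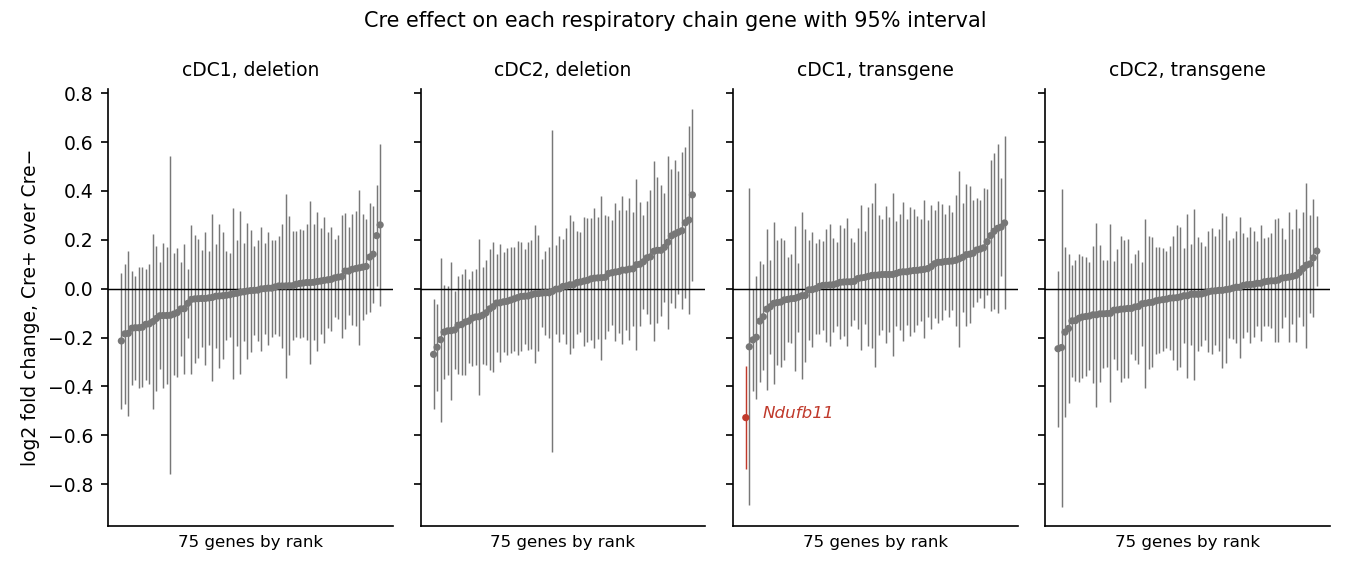
Log2 fold change of Cre-positive over Cre-negative libraries (y axis) with its 95% interval for 75 genes in rank order (x axis) in each of the 4 Cre comparisons, 4 libraries against 2; Cox7a1 and Cox6b2, with the widest intervals, are not drawn. The intervals cluster at 0, and Ndufb11 in cDC1 of the transgene line (red, -0.53) is the gene past the adjusted threshold.

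Among those under an unadjusted p of 0.05 in cDC2 with the deletion were Atp5g1, Atp5a1 and Uqcrc1. Atp5g1 stood at 92.2 and 88.4 CPM in the controls and at 78.4, 65.2, 79.2 and 77.2 CPM with the deletion, with no overlap (log2 -0.27, 95% interval -0.49 to -0.04, adjusted p = 0.18). Uqcrc1 stood at 294 and 286 CPM in the controls and at 226, 226.5, 272 and 257.5 CPM with the deletion (log2 -0.24, adjusted p = 0.12). Neither passed the test over all genes. A Cre effect unequal between the subsets was called for 0 of the 77 genes in both lines by edgeR and by DESeq2, with 4 and 2 under an unadjusted p of 0.05, while 1.08% and 2.01% of all genes passed by edgeR.

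Control libraries of the transgene and deletion lines, 2 against 2, gave 0 calls among the 77 genes by edgeR and by DESeq2 in either subset. Unadjusted p was under 0.05 for 2 genes in cDC1 and 1 in cDC2, where 0.129% and 0.137% of all genes passed. The medians were 0.075 and 0.072 higher in the transgene line. In cDC1, 25 of the 77 had both transgene-line controls above both deletion-line controls, against 16.8% of all genes, and 1 had them below, against 17.4%.

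Other genes that serve the chain were counted from lists. Over all genes tested, 25.8% were lower in control cDC2 and 27.6% higher. Of 14 further subunits, carriers and exchangers, 12 were lower in control cDC2 and 0 higher (median -0.52). Atpif1, the inhibitor that keeps the ATP synthase from running backwards, showed the widest gap of these, with 288 ± 19.6 CPM in control cDC1 and 65.1 ± 4.5 in control cDC2 (SD, n = 4 each). It was 4.43-fold lower (log2 -2.15, SE 0.078, adjusted p = 4.17e-16), and lower by -2.19 and -1.98 in the other sets. Cytochrome c, Cycs, was 2.34-fold lower (366 ± 20.9 and 157 ± 22.9 CPM, SD, n = 4 each). Of 41 assembly factors tested, 17 were lower and 3 higher in control cDC2 (median -0.15). Tmem70, which helps to assemble the ATP synthase, was lower by -1.08, and Ndufaf6, a complex I factor, by -2.04. Ndufaf4, another complex I factor, rose with the transgene in cDC1, where 3.58% of all genes were higher. It stood at 20.5 ± 2.09 CPM (SD, n = 4) against 13.5 ± 0.164 CPM in controls (SD, n = 2, log2 0.60, adjusted p = 0.037).

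Both classes of ribosomal protein genes were also lower in cDC2, beside 25.8% of all genes lower in controls and 19.2% in all 3 sets. Of 76 mitochondrial ribosomal protein genes 56 were lower in control cDC2 and 0 higher (median -0.45), and 68.4% were lower in all 3 sets. Of 77 cytosolic ribosomal protein genes 69 were lower and 0 higher (median -0.56), and 74% were lower in all 3 sets. The cytosolic genes took 3.12 to 4.206% of counts in cDC1 and 2.129 to 3.078% in cDC2. No test compared these lists with the respiratory chain genes.

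The pathways that feed the chain were divided, beside 25.8% of all genes lower and 27.6% higher in control cDC2. Of 20 citric acid cycle and pyruvate transport genes, 8 were lower and 3 higher in control cDC2 (median -0.01). Mdh2, mitochondrial malate dehydrogenase, was 3.48-fold higher in control cDC2, at 1209 ± 190 CPM against 345 ± 20.9 CPM (SD, n = 4 each, adjusted p = 9.763e-14). It was also the citric acid cycle gene that fell with the deletion in cDC2 (log2 -0.44, adjusted p = 0.014). Suclg1, of succinate-CoA ligase, was lower in control cDC2 by -0.84 and fell with the transgene in cDC1 by 0.31 on the log2 scale (adjusted p = 0.037). Of 13 genes of ubiquinone synthesis 6 were lower and 3 higher (median -0.03), with Adck3 at 2.27, Coq2 at -0.74 and Coq6 at -0.79. Of 10 mitochondrial antioxidant genes 5 were lower and 3 higher, with Sod2 at -0.71 and Gpx4 at 0.88. In both of these lists the part that was higher was near the share over all genes.

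Of 22 glycolysis genes 13 were lower and 7 higher in control cDC2 (median -0.42), beside 25.8% and 27.6% of all genes. Hk3, a hexokinase, stood at 193 ± 29.9 CPM in control cDC1 and at 8.96 ± 4.06 CPM in control cDC2 (SD, n = 4 each, adjusted p = 2.126e-14). Pgk1 and Pgam1 of the later steps of glycolysis were lower by -1.37 and -1.22. In cDC2 with the deletion 5 glycolysis genes fell and 0 rose, against 2.88% and 2.33% of all genes, among them Tpi1 (-0.56), Ldha (-0.42) and Hk3 (-1.26), where none of the 77 respiratory chain genes passed. In cDC1 with the transgene Hk1 (0.65) and the lactate carrier Slc16a3 (0.82) rose.

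Regulators of mitochondrial gene expression were counted in the same way. Of 17 biogenesis factors 7 were higher in control cDC2 and 0 lower (median 0.32); with the deletion 9 were higher and 2 lower, and with the transgene 4 and 2. Of all genes 27.6%, 29% and 26.8% were higher in these sets, and 25.8%, 27.1% and 26% lower. With the transgene, the part of the 17 that was higher was below the share over all genes. Myc was lower in cDC2 with the transgene (log2 -0.795, adjusted p = 0.0054), with overlap between the subsets. Gabpb1, a subunit of the ETS factor GABP, was higher by 0.82, 0.80 and 0.70. Nrf1 was higher by 0.42 in controls (44 ± 5.02 and 32.9 ± 2.26 CPM, SD, n = 4 each, adjusted p = 0.001). Ppargc1a, the coactivator PGC-1 alpha, stood at 2.67 ± 0.886 CPM in control cDC2 and at 0.0194 ± 0.0225 CPM in control cDC1 (SD, n = 4 each, adjusted p = 2.881e-05).

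**Figure D5:**
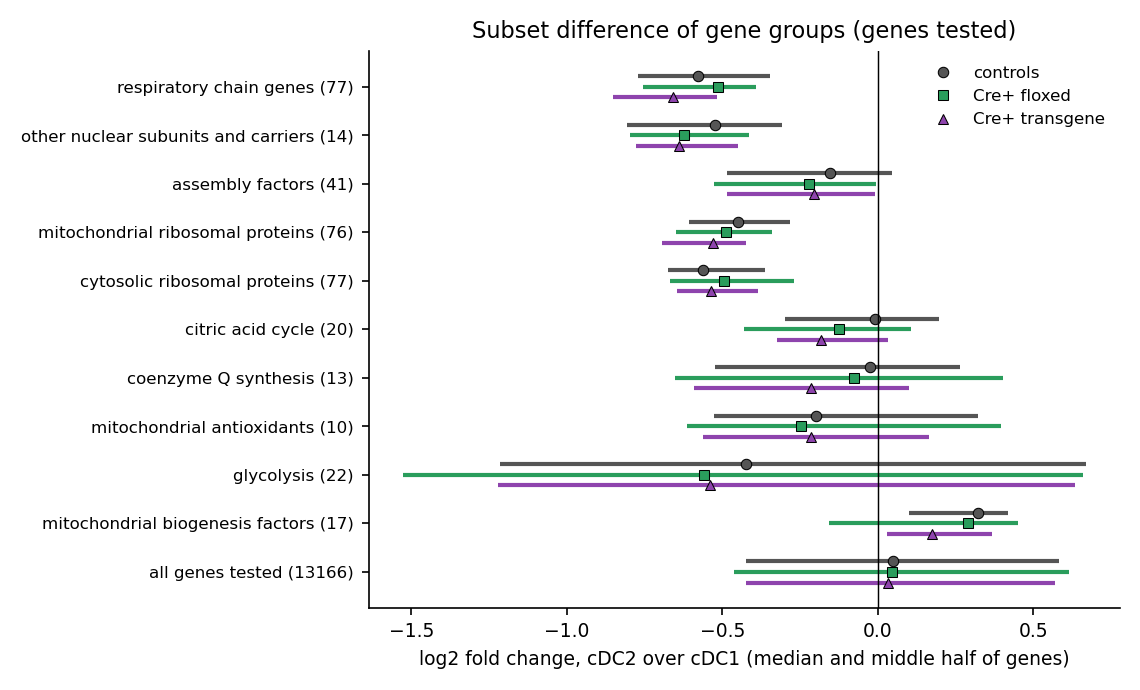
Median (symbol) and interquartile range (bar) of the log2 fold change of cDC2 over cDC1 (x axis) for the respiratory chain genes and other gene lists (y axis, genes tested in brackets) in controls, Cre-positive floxed and Cre-positive transgene libraries. The respiratory chain, carrier and both ribosomal lists have medians of -0.45 or below, with biogenesis factors above 0 and all genes near 0.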

How the data were processed

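The deposited files hold raw integer counts per gene symbol, made by the authors and not scaled. Per the labels' protocols, cDNA was made from 4 ng of RNA (SMART-Seq v4), sheared, built into NEBNext libraries with 15 cycles of final PCR and sequenced as single 75 bp reads. Per the submitters' processing notes, FastQC 0.11.4, Trimmomatic 0.35, TopHat2 2.1.0, SAMtools 0.1.18 and mm10 were used. No source used here names the counting program, its annotation or its strand setting. Lines for reads in no gene (no feature 10.43 to 15.68%, ambiguous 0.9702 to 1.086%) were left out of totals and tests. Without strand, reads of overlapping genes cannot be told apart, and 24 of the 77 genes overlap an exon of an opposite-strand gene; RefSeq names pseudogenes after 8 of them.

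A quasi-likelihood model in edgeR 4.0.16 (with limma 3.58.1, R 4.3.3) was fitted with 8 group means on 24 libraries, after filterByExpr (minimum count 10, minimum total 15) and TMM (factors 0.9245 to 1.074). p-values were Benjamini-Hochberg adjusted over 13166 genes, with a threshold of 0.05; intervals are at 95%. The 4 Cre comparisons, the control subset comparison, the differences between subsets and the line differences share control libraries. The 28 pairs of replicates within groups differed by more than sampling noise (chi-square per gene 10.11 to 51.09). Alternatives were DESeq2 1.42.0, its size factors, no low-count filter, a stricter filter (5 CPM in 4 libraries), fits of the compared libraries alone, a replicate block and leaving out each library. The scripts were tested on simulated data. Lengths and overlaps are from GENCODE vM21, and promoters from RefSeq (GRCm38.p6).

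The genes, lists and comparisons were chosen with earlier results of these data known. Named genes were the members past the threshold (up to 10 per direction, by p), the genes of highest and lowest mean CPM in each complex, complex II and paralogues, and up to 3 per other list; Ndufb2, Ndufs1, Ndufs8, Ndufa8, Ndufb3, Cox7c, Cox6a1, Uqcrh and the members with small unadjusted p-values were added after their values were seen. A gene that the rule takes is in the counts and medians but is not reported by itself here. The labels do not state that replicate numbers pair the subsets. Same-numbered Cre-positive libraries of both subsets deviated together from their group means in the transgene line (r 0.107, 0.101, 0.111 and 0.105) and in the deletion line (r 0.125, 0.17, 0.076 and 0.112), each matching its own number best. Under a rule that asks for r over 0.1 in every pair, the transgene line met it and the deletion line missed it by 1 pair. Controls, with 2 pairs per line, had r of 0.035 and -0.008.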

Additional observations from a re-analysis of the deposited data

Results flagged for a closer look

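In 148 checks, each of 1 gene or share within 1 Cre-positive group of 4 libraries, 11 held a library set apart. Its distance from the nearest other took up most of the group's range. Chance gives about 1 in 20 for a single check. The checks reuse the same libraries on related measures and are not independent. With the transgene active, cDC1 replicate 2 stood apart in Cox7b (125 CPM, others 110.8 to 112.2), Sdha (327.2, others 352.1 to 355.7), Uqcr11 (74.49, others 60.05 to 62.38), the share of counts in the 77 genes (1.304%, others 1.22 to 1.228%) and the share in complex I (0.2966%, others 0.2781 to 0.2786%). In the same group replicate 4 stood apart in Sdhb (200.2 CPM, others 172.3 to 176.9).

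In Cre-positive cDC2 of the deletion line, replicate 2 was low in Atp5g1 (65.22 CPM, others 77.21 to 79.15), in the share of counts in the 77 genes (0.6883%, others 0.8219 to 0.8338%), in that of complex III (0.0669%, others 0.07812 to 0.08034%) and in that of mitochondrial ribosomal protein genes (0.1744%, others 0.2089 to 0.2136%). Among cDC2 with the active transgene, replicate 3 was low in Cox7a2l (133.5 CPM, others 151.3 to 154.4). Why these libraries stood apart was not tested.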

How the results depend on the processing

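Of 66 alternatives that gave a count of respiratory chain genes called, leave-one-out fits aside, 65 stayed within 1.5 times the count reported or repeated a 0. In most comparisons the count reported was 0, and their alternatives gave 0 again. Those have no ratio and do not show how stable a call is. The exception was the replicate block in the Cre comparison of cDC1 in the transgene line, which gave 0 genes; Ndufb11 had a log2 change of -0.49 (adjusted p = 0.099) there. The Cre groups share only numbers, with no pairing in the labels, and the block changed no other call count by over 1.5 times. In the Cre and line comparisons the block left few libraries to estimate spread from, so 0 calls there says little. Leaving out each library gave 63 to 68 genes called between subsets in controls, 65 to 67 with the deletion, 69 to 71 with the transgene, 1 in each fit for the Cre comparison in cDC1 of the transgene line, and 0 in each fit for all other comparisons. Of 500 alternatives for 36 named results, 494 kept direction and side of the threshold, 6 lost the call (5 for Cox6b2 without a single library and 1 for Ndufb11 under the block) and 0 reversed. These results were picked by smallest p in the same data, so most lay far from the threshold. Calls nearer to it, such as Cox7a1 with the deletion and Cox7a2l in controls, were not among them. The stricter filter tested 74 of the 77 genes. With 2 controls per group, small Cre effects, and the lowest genes (Cox7a1, Cox6b2, Atp5s), were limited in precision.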
